A study of Mus musculus with 12 samples.

Results

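The cytosolic heat shock response was followed through 10 genes, chosen by name with earlier results of these data known: Hspa1a, Hspa1b, Hspa8, Dnajb1, Hsph1, Hsp90aa1, Hspb1, Bag3, Hsf1 and Hspe1. All 10 were found among the 54532 genes of the deposited table. The table holds 12 RNA-seq libraries of primary hepatocytes from 6-week-old mice, 3 in each of 4 groups. HKO_PA and HKO_BSA are cells of mice with a hepatocyte-specific G3bp1 knockout given PA or BSA. Flox_PA and Flox_BSA are cells of G3bp1-Flox mice given the same, and these mice are the genotype control. The labels do not spell out PA or BSA, and they leave the driver of the knockout, the dose, the duration and any pooling of animals unstated. The stated question was what G3BP1, a protein that nucleates stress granules, does in NASH, a fatty liver disease with inflammation.

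Heat shock proteins are chaperones that hold or refold damaged proteins. In an unstressed cell the transcription factor HSF1 is kept inactive by chaperones; when unfolded proteins draw these away, HSF1 forms trimers and binds heat shock elements, inverted repeats of the unit GAA, in the promoters of chaperone genes. HSP70 proteins bind exposed peptide stretches, J-domain proteins such as DNAJB1 bring them their clients, and exchange factors such as HSPH1 and BAG3 release the clients again.

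The promoters of the inducible HSP70 pair are shown because these genes rose with PA in both genotypes, and that of Hspb1 because it was higher in HKO under both treatments. The sequences are the 250 bases before the RefSeq transcription start (GRCm38.p6), 5′ to 3′ on the gene's strand, with exact matches to GAANNTTC or TTCNNGAA in capitals. GAANNTTC is a head-to-head pair of units and TTCNNGAA a tail-to-tail pair, and each reads the same on both strands. Hspa1a lies at chr17:34972157-34972406 on the minus strand, Hspa1b at chr17:34959239-34959488 on the minus strand and Hspb1 at chr5:135887669-135887918 on the plus strand.
Hspa1a: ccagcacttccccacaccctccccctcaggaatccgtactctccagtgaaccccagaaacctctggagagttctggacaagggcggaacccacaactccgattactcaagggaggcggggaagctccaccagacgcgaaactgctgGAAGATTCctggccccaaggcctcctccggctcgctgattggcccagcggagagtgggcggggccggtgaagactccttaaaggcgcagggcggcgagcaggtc
Hspa1b: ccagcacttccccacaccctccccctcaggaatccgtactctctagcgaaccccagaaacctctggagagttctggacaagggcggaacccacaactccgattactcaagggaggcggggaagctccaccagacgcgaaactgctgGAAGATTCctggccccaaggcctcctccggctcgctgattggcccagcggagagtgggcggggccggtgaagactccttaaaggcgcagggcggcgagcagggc
Hspb1: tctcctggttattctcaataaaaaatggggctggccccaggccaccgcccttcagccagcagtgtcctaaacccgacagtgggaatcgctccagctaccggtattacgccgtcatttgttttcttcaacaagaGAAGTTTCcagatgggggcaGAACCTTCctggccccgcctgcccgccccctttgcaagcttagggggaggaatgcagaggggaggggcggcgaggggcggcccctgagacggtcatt
The Hspa1a and Hspa1b stretches differ at 3 of 250 bases, and both hold 1 head-to-head pair, 104 to 97 bases before the start. Hspb1 holds 2 head-to-head pairs that do not touch.

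Of the 10 genes, 7 are in the promoter table, with 9 starts in all. Hsph1 and Hspe1 are shown as sites of 30 bases, and their windows reach into annotated genes. The Hsph1 site too lies mostly within the annotated gene, its match included, as that gene starts at 149636376 on the minus strand. The Hspe1 site lies before the annotated Hspe1 start (55088132), a gene that the opposite-strand gene Hspd1 overlaps by 112 bases.
Hsph1 site, chr5:149636351-149636380, minus strand: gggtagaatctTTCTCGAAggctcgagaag
Hspe1 site, chr1:55088053-55088082, plus strand: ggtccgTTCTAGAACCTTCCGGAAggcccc
The Hspe1 site holds 2 overlapping runs of 3 alternating units, that is, TTCNNGAA followed by NNTTC and GAANNTTC followed by NNGAA. Either run is found in 0.466% of 32851 RefSeq promoter windows of 250 bases. Of the same windows, 6.69% hold GAANNTTC, 7.17% hold TTCNNGAA and 12.8% hold either. Among the 7 genes, 5 hold either pair, and no exact match lies in the windows of Dnajb1 or Bag3. The window of Dnajb1 start 2 (chr8:83608298-83608547) lies wholly inside the annotated gene (chr8:83608193-83612653). Only that of Dnajb1 start 1 lies before the gene. A match of letters is a description of the sequence and not evidence that a factor binds there.

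**Figure D1:**
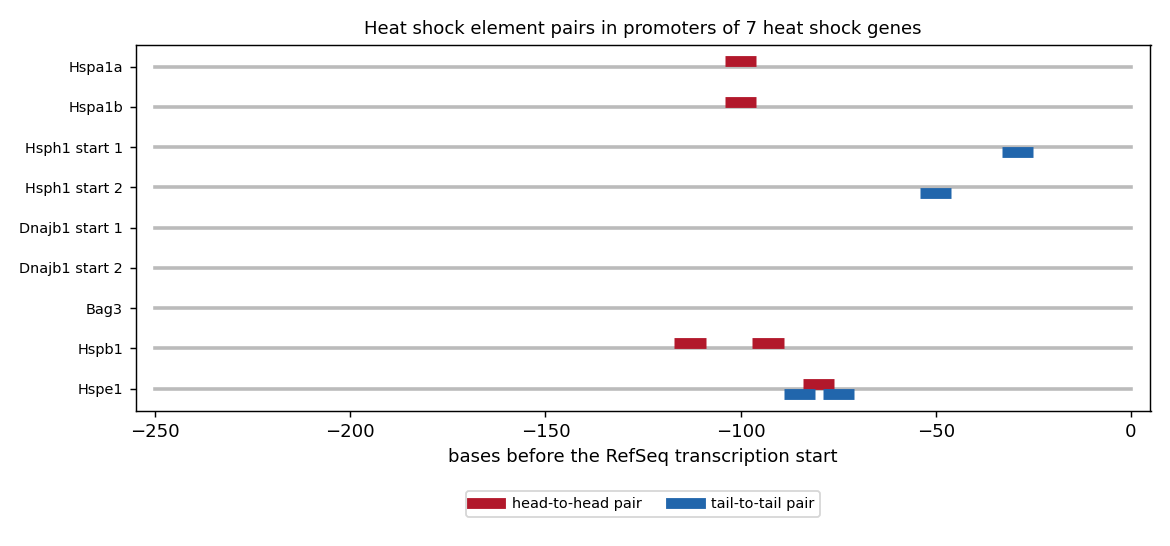
Exact heat shock element pairs in the 250 bases before each RefSeq start (x axis, bases before the start) of 7 heat shock genes, with 9 starts as rows. Red boxes are head-to-head pairs and blue boxes tail-to-tail pairs. Hspe1 holds 3 overlapping pairs, Hspa1a and Hspa1b hold 1 each at the same place, and Bag3 and Dnajb1 hold none. The window of Dnajb1 start 2 lies inside the annotated gene.

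The values are FPKM, fragments scaled by the authors for gene length and library size. Tests used log2(FPKM + 1), a scale on which changes of genes near or under 1 FPKM are understated, in 1 limma fit over the 9743 genes whose mean reached 1 FPKM. A gene is said to have risen or fallen where its p, adjusted by Benjamini-Hochberg over all these genes, is under 0.05. Differences and their standard errors (SE) are log2 values, group values are mean ± SD with n = 3, and all tests are two-sided. The fit pools the spread of each gene over all 4 groups. The median SD of log2(FPKM + 1) over the tested genes was 0.22 in HKO_PA, 0.21 in HKO_BSA, 0.11 in Flox_PA and 0.10 in Flox_BSA. Calls and counts for PA in Flox and PA in HKO are thus not made at the spread of each genotype's own libraries. Nothing says that the libraries of a group came from separate mice, so the p-values reflect variation among these libraries, which may be technical.

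Reads in genes ranged from 15.02 M to 18.42 M per library. G3bp1 averaged 7.50 ± 0.540 FPKM in HKO_PA and 39.9 ± 1.52 in Flox_PA, and 8.25 ± 0.413 in HKO_BSA and 41.2 ± 4.11 in Flox_BSA, so the knockout label held in all 6 HKO libraries. The 8 hepatocyte markers summed to 10467 to 20849 FPKM over the HKO libraries and 7463 to 8715 over the Flox libraries. The 16 macrophage markers summed to 144 to 185 FPKM in HKO_PA and 2172 to 2443 in Flox_PA, and to 96.2 to 138 in HKO_BSA and 2558 to 2635 in Flox_BSA, and all 16 were lower in HKO under both treatments. The 8 endothelial markers summed to 10.8 to 13.6 FPKM in HKO_PA and 16.4 to 19.4 in Flox_PA, and to 12.4 to 13.5 in HKO_BSA and 19.8 to 21.4 in Flox_BSA. The 6 cholangiocyte markers summed to 14.1 to 28.2 FPKM in HKO and 9.57 to 13.2 in Flox libraries. Stellate cell and lymphocyte markers summed to at most 1.33 FPKM in each library, and neutrophil markers to at most 0.738 in HKO and 16.9 to 25.5 in Flox libraries. No marker was at 0 in all libraries. The part of these other cells in the genotype differences described here was not tested, and in such bulk samples fewer cells of a type and less RNA per cell cannot be told apart. HKO_PA 1 and HKO_BSA 1 stood apart from the other HKO libraries on the second principal component (11.7% of the variance), at -34.3 and 26.7. For the 10 genes, values without them are given where they change a call. For the genes of other lists no such values are given, so how far their calls rest on these libraries is not shown.

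All 10 genes passed the filter on low values, Hspa1a and Hspa1b through their PA libraries: Hspa1a was under 1 FPKM in all 6 BSA libraries. In Flox_BSA the order of the means was Hspa8 (315 ± 27.0 FPKM), Hspe1 (158 ± 5.86), Hspb1 (82.8 ± 9.90), Hsp90aa1 (43.1 ± 13.3), Bag3 (28.7 ± 0.790), Dnajb1 (19.9 ± 0.641), Hsf1 (6.69 ± 0.163), Hsph1 (3.22 ± 0.619), Hspa1b (0.555 ± 0.122) and Hspa1a (0.226 ± 0.0888). Hsp90aa1 and Bag3 overlapped in that order, and the other neighbours did not.

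The inducible HSP70 genes Hspa1a and Hspa1b rose with PA in both genotypes, and both were higher in HKO than in Flox with PA. Hspb1 was higher in HKO under both treatments. Hspa8, Dnajb1, Hsph1, Hsp90aa1 and Hsf1 passed in none of the 5 comparisons. Counted over the set, 2 of 10 rose and none fell with PA in HKO, where 1.68% of the 9743 genes rose and 1.25% fell (2.94% in all). These 2 are Hspa1a and Hspa1b, near-identical copies whose reads cannot be fully separated. Both also count among the genes called for PA in Flox and for genotype with PA. In Flox 3 of 10 rose and none fell with PA, where 1.29% of all genes rose and 0.913% fell (2.21% in all). Between genotypes with PA, 4 of 10 were higher and 1 lower in HKO, where 16.9% of all genes were higher and 18.8% lower (35.7% in all). With BSA, 2 of 10 were higher and none lower in HKO, where 9.63% of all genes were higher and 10.8% lower (20.5% in all), so the set's share of calls was near that of all genes. The difference between the PA effects passed for 1 of 10, with a larger effect in HKO, where 0.164% of all genes passed in that direction and 0.103% in the other (0.267% in all). As the set was chosen with earlier results of these data known, these shares describe it and are no test of it. The counts and medians of the next paragraph have the same limit.

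Groups that did not overlap were also counted by direction. With PA, 3 of 10 genes were wholly higher and none wholly lower in HKO, against 9.1% of all genes in either direction (18.2% in all). In Flox 4 of 10 were wholly higher and none lower with PA, against 22.1% and 16.9% of all genes (39% in all). Counted in either direction, this is near the background. Between genotypes with PA, 5 of 10 were wholly higher and 2 wholly lower in HKO, against 26% of all genes each way (52% in all). With BSA 3 of 10 were wholly higher and none lower in HKO, against 19.7% and 18% of all genes (37.7% in all), which is near the background. Median differences of the set were 0.35 for PA in HKO and 0.21 for PA in Flox, against 0.00 and 0.01 over all genes. For genotype they were 0.27 with PA and 0.06 with BSA, against 0.00 and 0.04 over all genes.

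**Figure D2:**
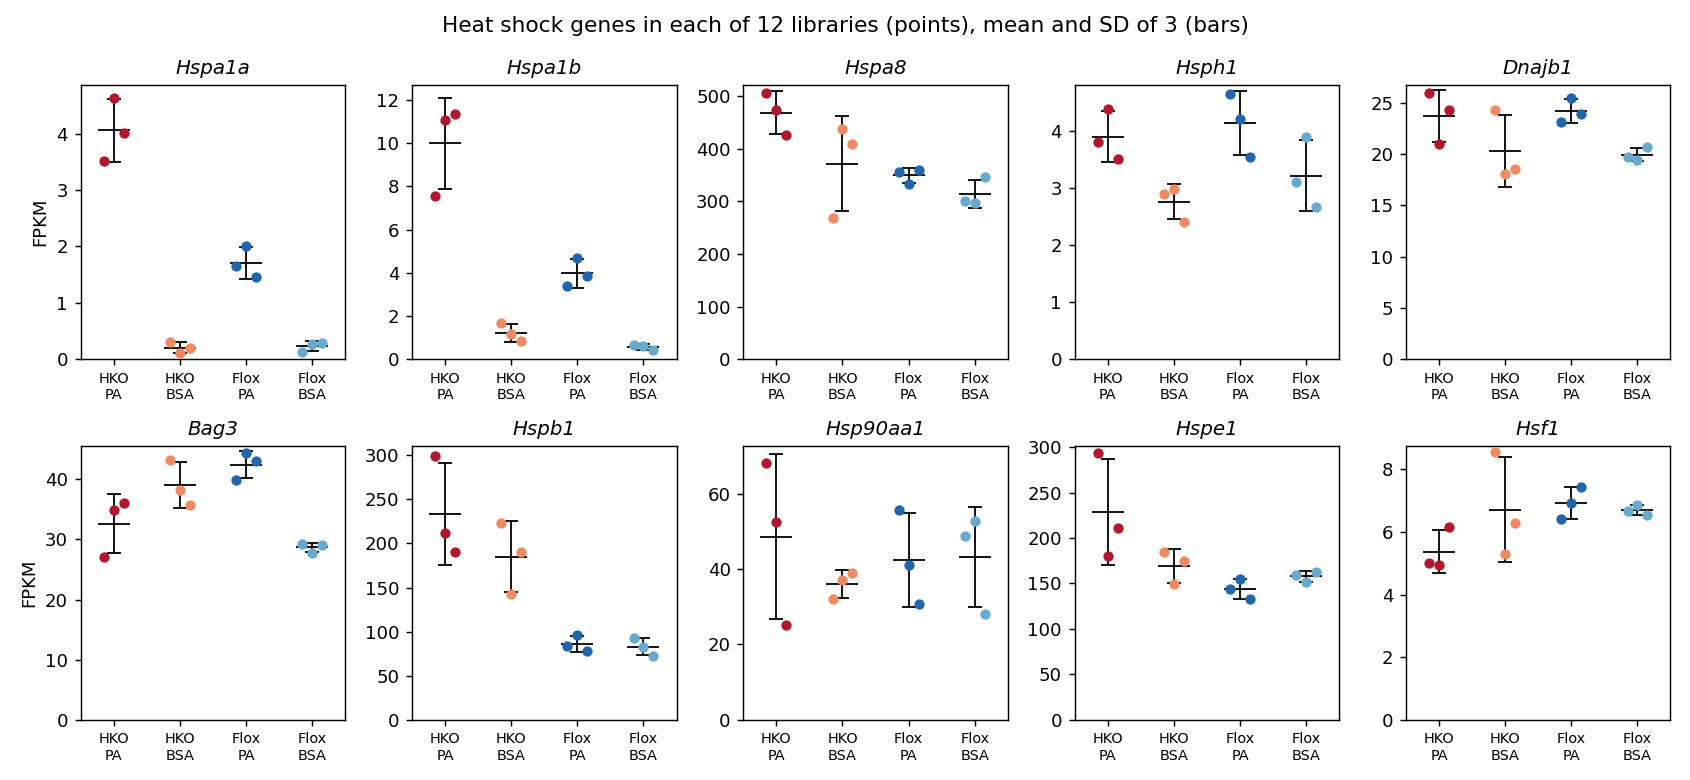
FPKM (y axis, from 0, scaled per gene) of the 10 heat shock genes in HKO_PA, HKO_BSA, Flox_PA and Flox_BSA, with 1 point per library and bars for the mean and SD of 3. Hspa1a and Hspa1b are high in the 6 PA libraries, Hspb1 in the 6 HKO libraries, and the other genes vary less between groups.

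Hspa1a and Hspa1b encode the inducible HSP70, the classic product of the heat shock response, and they were the genes of the set that rose with PA in both genotypes. Hspa1a (ENSMUSG00000091971, chr17:34969190-34972156, minus strand) had 3.51, 4.64 and 4.02 FPKM in HKO_PA and 0.304, 0.107 and 0.195 in HKO_BSA. It had 1.64, 2.01 and 1.46 FPKM in Flox_PA and 0.123, 0.271 and 0.282 in Flox_BSA. Every PA library lay above every BSA library, and every HKO_PA library above every Flox_PA library, while the BSA groups overlapped. With PA it rose by 2.07 in HKO (SE 0.12, adjusted p = 2.0e-06) and by 1.14 in Flox (SE 0.12, adjusted p = 0.000328). The ratio of mean FPKM was 20.1 in HKO and 7.55 in Flox, with the BSA means resting on 5 to 14 reads per library in HKO and 7 to 15 in Flox.

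Hspa1b (ENSMUSG00000090877, chr17:34956436-34959238, minus strand) had 7.54, 11.1 and 11.3 FPKM in HKO_PA and 1.66, 1.15 and 0.847 in HKO_BSA. It had 3.38, 4.68 and 3.83 FPKM in Flox_PA and 0.652, 0.593 and 0.418 in Flox_BSA. No 2 of these groups overlapped, and the order was HKO_PA, Flox_PA, HKO_BSA, Flox_BSA. With PA it rose by 2.30 in HKO (SE 0.17, adjusted p = 1.1e-05) and by 1.67 in Flox (SE 0.17, adjusted p = 0.000282), and the ratio of mean FPKM was 8.20 in HKO and 7.15 in Flox. The calls of Hspa1a and Hspa1b with PA held in each of 16 alternatives per genotype in which they could be tested, with Hspa1a at 1.86 to 4.34 in HKO and 1.06 to 2.91 in Flox.

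Between genotypes, PA-treated HKO cells had more of both transcripts than PA-treated Flox cells. Hspa1a was higher by 0.90 (SE 0.12, adjusted p = 8.8e-05) and Hspa1b by 1.14 (SE 0.17, adjusted p = 0.000239), and both calls held in each of 15 alternatives. With BSA, Hspa1b was 0.50 higher in HKO (SE 0.17), which missed the threshold at adjusted p = 0.0572, and Hspa1a differed by -0.03 (95% interval -0.29 to 0.24, adjusted p = 0.904). Quantile normalization gave Hspa1a 0.40 in place of -0.03 there, at adjusted p = 0.0217. With a pseudocount of 0.1, quantile normalization, only the groups compared, omission of HKO_BSA 3 or omission of both HKO libraries numbered 1, the Hspa1b difference in BSA passed.

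A larger PA effect in HKO passed for Hspa1a and not for Hspa1b, and the Hspa1a call changed with the settings. The difference between the PA effects, HKO minus Flox, was 0.93 for Hspa1a (SE 0.17, adjusted p = 0.0454) and 0.63 for Hspa1b (SE 0.24, adjusted p = 0.227). For Hspa1a it passed in 6 of 21 alternatives, with values of 0.61 to 1.42 and adjusted p from 0.0208 to 0.243. It was lost without any single Flox library (adjusted p 0.0757 to 0.154), without HKO_BSA 2 (0.104), HKO_BSA 3 (0.0964) or HKO_PA 2 (0.0938). It was lost too with a pseudocount of 0.1 (difference 1.33, adjusted p = 0.167), no filter (0.109), quantile normalization (0.0945), limma-voom on computed reads (0.243) or a replicate block (0.0715 and 0.196). For Hspa1b the difference ranged from 0.25 to 0.94 over 21 alternatives. It was 0.32 with a pseudocount of 0.1, and 0.94 without both HKO libraries numbered 1, where it passed (adjusted p = 0.0416).

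The pair cannot be fully separated by sequence. In GENCODE M21 each is a single exon, the coding sequences differ at 8 of 1923 aligned bases (99.6% identical), and the stretches after the coding sequence are 57.9% identical. Of all 100-base windows of Hspa1a, 47.1% occur in Hspa1b, and 49.9% the other way. Read length and the handling of reads that match both are unstated, so the split between the copies is uncertain. Hspa1b made up 68.2%, 70.5% and 73.8% of the summed FPKM in HKO_PA and 67.3%, 69.9% and 72.5% in Flox_PA, against 81.3% to 91.5% in HKO_BSA and 59.7% to 84.1% in Flox_BSA. Gm20481, annotated on the opposite strand over 2225 bases of Hspa1a, is listed at 0 in all libraries; the kit is not described as strand-specific in the labels.

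Summed into 1 row, the pair had 11.1, 15.7 and 15.4 FPKM in HKO_PA and 1.96, 1.26 and 1.04 in HKO_BSA. The sum was 5.02, 6.70 and 5.29 FPKM in Flox_PA and 0.776, 0.864 and 0.701 in Flox_BSA. It rose with PA by 2.64 in HKO (SE 0.17, adjusted p = 4.8e-06) and by 1.90 in Flox (SE 0.17, adjusted p = 6.2e-05). The sum was higher in HKO than in Flox with PA by 1.17 (adjusted p = 0.000145) and by 0.43 with BSA, which did not pass (adjusted p = 0.0934). The difference between its PA effects was 0.74 (95% interval 0.23 to 1.25) and did not pass (adjusted p = 0.171). The ratio of mean FPKM of the sum was 9.89 in HKO and 7.27 in Flox. Adding 1 FPKM shrinks a PA effect more where BSA values are lower, as in Flox, so the size of this difference depends on the scale.

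Hspa8 encodes HSC70, the constitutive cytosolic HSP70, and was the most abundant of the 10 transcripts in each group. It had 507, 474 and 426 FPKM in HKO_PA and 269, 438 and 409 in HKO_BSA, and 357, 334 and 360 in Flox_PA and 301, 298 and 346 in Flox_BSA. Of the 4 pairs of groups compared, HKO_PA and Flox_PA did not overlap and the others did. That difference was 0.42 (SE 0.17, adjusted p = 0.0739) and missed the threshold. It passed when only the groups compared were fitted (adjusted p = 0.0427) and, at 0.36, when HKO_PA 1 and HKO_BSA 1 were omitted together (adjusted p = 0.0152). HKO_BSA 1 was the lowest of the 12 libraries; without it Hspa8 was 0.43 higher in HKO than in Flox with BSA (adjusted p = 0.0245), against 0.21 (adjusted p = 0.44) with it. The summed inducible pair came to 2.18% to 3.60% of the Hspa8 level in HKO_PA and 0.255% to 0.729% in HKO_BSA, and to 1.41% to 2.004% in Flox_PA and 0.203% to 0.290% in Flox_BSA. Per length, the inducible HSP70 RNA was far below the constitutive one in each library.

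Hsph1 encodes HSP110, an exchange factor for HSP70. It had 3.80, 4.38 and 3.4995 FPKM in HKO_PA and 2.90, 2.98 and 2.40 in HKO_BSA, groups that did not overlap. It had 4.65, 4.199 and 3.54 FPKM in Flox_PA and 3.11, 3.88 and 2.66 in Flox_BSA, which did. The PA difference was 0.38 in HKO (95% interval 0.08 to 0.68, adjusted p = 0.152) and 0.29 in Flox (95% interval -0.02 to 0.59, adjusted p = 0.333), and neither passed.

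Dnajb1 encodes the J-domain protein HSP40, which delivers clients to HSP70 and is a textbook HSF1 target. It had 25.97, 21.0 and 24.3 FPKM in HKO_PA and 24.3, 18.03 and 18.5 in HKO_BSA, and 23.2, 25.5 and 23.9 in Flox_PA and 19.7, 19.5 and 20.7 in Flox_BSA. The Flox groups did not overlap and the HKO groups did. The PA difference was 0.22 in HKO (adjusted p = 0.355) and 0.27 in Flox (95% interval -0.02 to 0.56, adjusted p = 0.348); it passed in Flox only when the Flox libraries were fitted alone (adjusted p = 0.0424). The upper bound of these intervals is under the differences of Hspa1a and Hspa1b in the same libraries.

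Bag3 encodes an HSP70 co-chaperone that links clients to autophagy, and its PA difference had opposite signs in the genotypes. It had 27.1, 34.8 and 36.0 FPKM in HKO_PA and 43.3, 38.3 and 35.8 in HKO_BSA, which overlapped. It had 40.0, 44.4 and 43.0 FPKM in Flox_PA and 29.2, 27.8 and 29.0 in Flox_BSA, where every PA library was higher. The PA difference was -0.26 in HKO (SE 0.13, adjusted p = 0.278), and in Flox Bag3 rose by 0.55 (SE 0.13, adjusted p = 0.0494). The Flox call passed in 5 of 18 alternatives. Adjusted p was 0.00313 with only the groups compared and 0.00145 with omission of both HKO libraries numbered 1. It was 0.0481 with a filter at 5 FPKM, 0.0487 with a trimmed mean of log ratios and 0.0496 with the summed HSP70 pair. So the call depends on the spread of the libraries fitted with the Flox groups. The Flox call was lost without any 1 of the 6 Flox libraries (adjusted p 0.087 to 0.263), with either replicate block (0.0821 and 0.161) and with limma-voom on computed reads (0.149). It was lost too with a pseudocount of 0.1 (0.0641), no filter (0.0545), quantile normalization (0.0551) and a robust prior (0.0521). The difference between the PA effects was -0.81 (95% interval -1.21 to -0.41) and missed the threshold (adjusted p = 0.0767). It passed without HKO_PA 3 (adjusted p = 0.0373). Omitting HKO_PA 1 and HKO_BSA 1 together gave -0.61, which passed (adjusted p = 0.0468).

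Compared by genotype, Bag3 was lower in HKO_PA than in Flox_PA, a fall of 0.38 (SE 0.13, adjusted p = 0.0394), and higher in HKO_BSA than in Flox_BSA by 0.43 (SE 0.13, adjusted p = 0.0337). Neither pair of groups overlapped. The PA call was lost without HKO_PA 1 (difference -0.25, adjusted p = 0.135), without Flox_PA 1 (0.0597), Flox_PA 2 (0.126) or Flox_PA 3 (0.11), and also with the replicate number as a block (0.0516) or only the groups compared (0.0736). The BSA call held without HKO_BSA 3 (adjusted p = 0.0495) and was lost without each of the other 5 libraries compared (adjusted p 0.0563 to 0.118). Bag3 also did not pass in BSA on computed reads with limma-voom (0.27, adjusted p = 0.272) or with quantile normalization (0.35, adjusted p = 0.076).

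Hspb1 encodes HSP27 (HSP25 in mice), a small heat shock protein that holds unfolding proteins without ATP and binds actin filaments. With BSA it had the largest genotype difference of the 10 genes. With PA it did so too, except without HKO_PA 1 (1.22, against 1.31 for Hspa1b) and with quantile normalization (1.17, against 1.21 for Hspa1b). It had 299.6, 212 and 190.2 FPKM in HKO_PA and 83.1, 96.5 and 78.0 in Flox_PA, and 223, 143 and 190.0 in HKO_BSA and 92.6, 83.1 and 72.8 in Flox_BSA. All 6 HKO libraries lay above all 6 Flox libraries. It was higher in HKO by 1.41 with PA (SE 0.20, adjusted p = 9.7e-05) and by 1.13 with BSA (SE 0.20, adjusted p = 0.00072), and these calls held in each of 17 alternatives, with differences of 1.17 to 1.55 and of 0.97 to 1.31. The PA difference was 0.33 in HKO (adjusted p = 0.345) and 0.05 in Flox (95% interval -0.37 to 0.47, adjusted p = 0.914), which did not pass.

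Hsp90aa1 encodes the stress-inducible cytosolic HSP90, which matures kinases and steroid receptors and also holds HSF1 inactive. It had 68.2, 52.5 and 25.05 FPKM in HKO_PA and 32.0, 37.0 and 39.0 in HKO_BSA, and 55.6, 41.0 and 30.6 in Flox_PA and 48.8, 52.6 and 28.0 in Flox_BSA. Each pair of groups overlapped. Replicate 3 was the lowest of its group in HKO_PA, Flox_PA and Flox_BSA. Its coefficient of variation was 44.9% in HKO_PA, 10.1% in HKO_BSA, 29.6% in Flox_PA and 30.7% in Flox_BSA. Its PA difference was 0.32 in HKO (95% interval -0.39 to 1.02, adjusted p = 0.603) and -0.01 in Flox (95% interval -0.71 to 0.69, adjusted p = 0.987).

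Hspe1 encodes HSP10, the lid of the mitochondrial HSP60 chaperonin, and shares a promoter region with the HSP60 gene Hspd1; their annotated ends overlap by 112 bases on opposite strands. Hspe1 had 294, 181 and 211 FPKM in HKO_PA and 143, 154 and 133 in Flox_PA, groups that did not overlap, and 185, 149 and 175 in HKO_BSA and 160, 151 and 163 in Flox_BSA, groups that did. It was higher in HKO with PA by 0.64 (SE 0.17, adjusted p = 0.0101), and by 0.44 without HKO_PA 1 (adjusted p = 0.0291), its highest library. Hspd1 averaged 96.4 ± 19.5 FPKM in HKO_PA and 80.3 ± 13.6 in Flox_PA and did not pass (difference 0.25, adjusted p = 0.304).

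Hspe1 and Hspb1 are short transcripts, of 1474 and 1031 bases in the authors' length column, and genes of that length had a positive median difference between genotypes. The 618 tested genes of 1000 to 1500 bases had a median difference of 0.31 between HKO and Flox with PA, against 0.00 over all genes, and of 0.16 against 0.04 with BSA. Without HKO_PA 1 the median of this length class was 0.20 with PA. With PA the Hspe1 and Hspb1 differences were above the median of their length class. With BSA that of Hspb1 was above it and that of Hspe1 (0.10, adjusted p = 0.733) below it. For PA in HKO the length class had a median of 0.23, against -4.2e-05 over all genes, and of 0.10 without HKO_PA 1. Hspe1 and Hspb1 differed there by 0.40 and 0.33. For PA in Flox the class median was 0.05 against 0.01, and for the difference between PA effects 0.20 against 0.02. The part of transcript length in these differences was not tested.

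Hsf1, the transcription factor of the response, is controlled mostly through its protein. Its RNA was at 5.02, 4.93 and 6.17 FPKM in HKO_PA and 6.42, 6.94 and 7.44 in Flox_PA, groups that did not overlap, and at 8.56, 5.28 and 6.29 in HKO_BSA and 6.67, 6.86 and 6.54 in Flox_BSA, which did. It was 0.32 lower in HKO with PA (95% interval -0.65 to 0.01, adjusted p = 0.114), which did not pass, except with limma-voom on computed reads (-0.53, adjusted p = 0.0305). In BSA the difference was -0.02 (adjusted p = 0.953), and the PA difference was -0.26 in HKO (adjusted p = 0.341) and 0.04 in Flox (95% interval -0.28 to 0.37, adjusted p = 0.909).

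**Figure D3:**
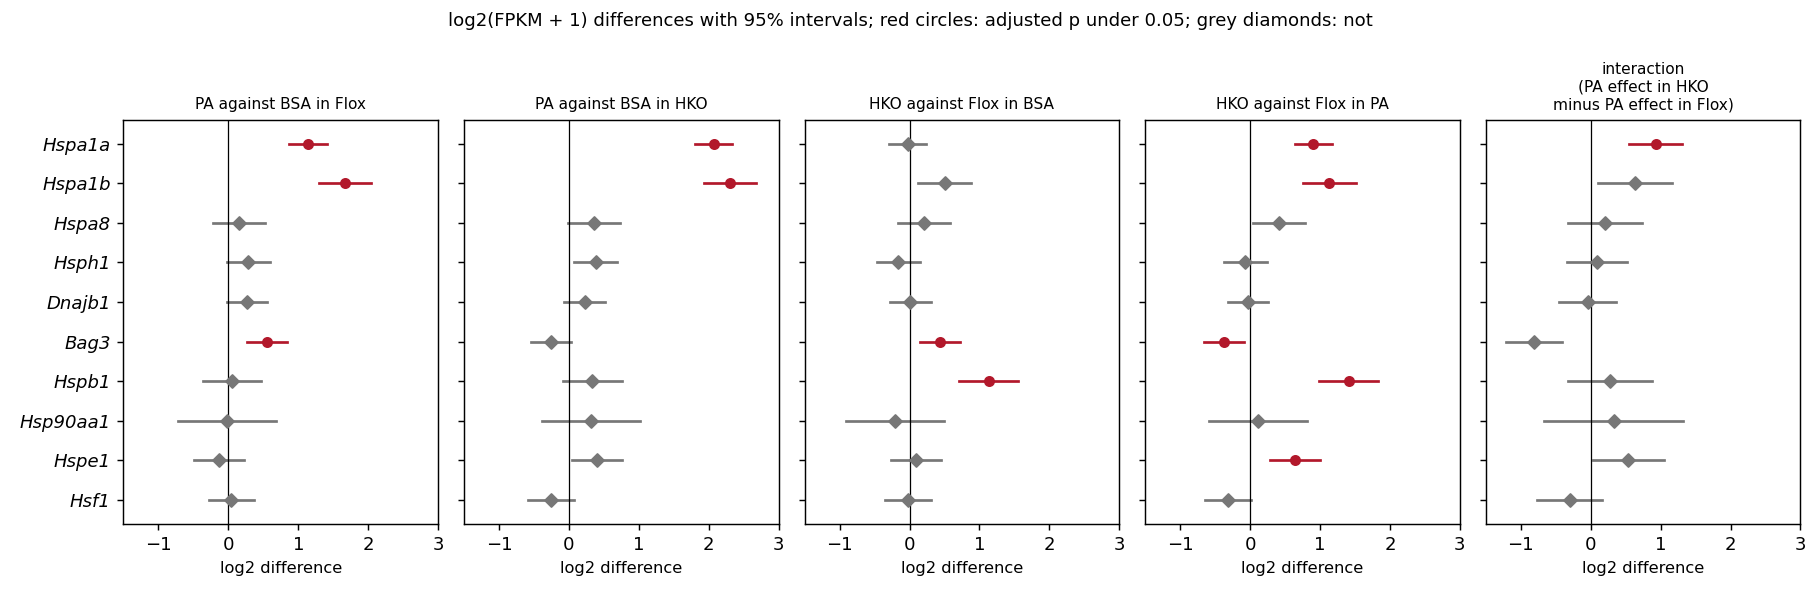
Differences of log2(FPKM + 1) of the 10 heat shock genes (points) with 95% intervals (lines), in 5 comparisons. Red circles passed at an adjusted p under 0.05 and grey diamonds did not. With PA Hspa1a and Hspa1b stand alone on the right in HKO (2.07 and 2.30). With genotype Hspb1 stands on the right with BSA (1.13), and with PA (1.41) beside Hspa1b (1.14) and Hspa1a (0.90), whose intervals overlap its own.

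In the wider chaperone network Bag2 and Tomm34 rose with PA in Flox, and no tested gene of its cytosolic, mitochondrial and HSF lists passed with PA in HKO. With 2.94% of all genes called in HKO and 2.21% in Flox, lists of this size hold few calls at the background share, and these counts are no result about the lists. Of 11 tested HSP70, HSP110 and exchange partners none passed in HKO and 1 rose in Flox: Bag2, an inhibitor of the ubiquitin ligase CHIP, averaged 4.82 ± 0.467 FPKM in HKO_PA and 3.30 ± 0.674 in HKO_BSA, and 6.16 ± 0.630 in Flox_PA and 2.94 ± 0.247 in Flox_BSA (0.86, adjusted p = 0.00493 in Flox). Of 15 HSP90 co-chaperone genes none passed in HKO and 1 rose in Flox, Tomm34, which binds HSP70 and HSP90 (0.58, adjusted p = 0.0414). None of 12 J-domain genes, 14 chaperonin and prefoldin genes, 10 mitochondrial chaperones, 4 small heat shock genes, 8 other heat-inducible genes and 5 HSF family and regulator genes passed with PA in either genotype.

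With loss of G3bp1, single members of these lists passed. Over all genes, 35.7% passed between genotypes with PA and 20.5% with BSA, so such counts are no result about the lists. Of 14 chaperonin and prefoldin genes 4 were higher and none lower in HKO with PA, led by the prefoldin subunits Pfdn1 (1.17, adjusted p = 8.0e-05), Pfdn4 (0.77, adjusted p = 0.0141) and Pfdn5 (0.73, adjusted p = 0.0063). Pfdn4 averaged 23.6 ± 9.61 FPKM in HKO_PA and 12.9 ± 1.61 in Flox_PA, and Pfdn5 105 ± 27.8 and 61.9 ± 3.60. The part of transcript length in the differences of list genes was not tested. Tested genes of 1000 to 1500 bases had a median of 0.31 with PA. With BSA 1 was higher, Pfdn1 (0.60, adjusted p = 0.0155), and the shares of all genes higher with PA and with BSA were 16.9% and 9.63%. Of the 4 small heat shock genes Hspb11, which encodes a subunit of intraflagellar transport, was higher (0.83, adjusted p = 0.0082) and Cryab, the lens and muscle chaperone alpha-B crystallin, lower (-0.50, adjusted p = 0.00801) in HKO with PA, and Hspb6 (0.73, adjusted p = 0.00304) and Hspb8, a partner of BAG3 (0.41, adjusted p = 0.0421), were higher with BSA.

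Hsp90ab1, the constitutive HSP90, averaged 552 ± 153 FPKM in HKO_PA and 815 ± 36.9 in Flox_PA and fell by 0.60 (adjusted p = 0.022). In its list Tomm34 (-0.46, adjusted p = 0.0179) was lower too and Sugt1, a co-chaperone (1.03, adjusted p = 0.0123), higher in HKO with PA, while with BSA only Fkbp5 passed (0.49, adjusted p = 0.0384). Among HSP70 partners Bag6 was lower (-0.71, adjusted p = 0.0118) and Bag1 higher (0.49, adjusted p = 0.0201) with PA and none passed with BSA. The J-domain gene Dnajc9, a histone chaperone, was higher in HKO with PA (0.59, adjusted p = 0.0035) and with BSA (0.57, adjusted p = 0.00587), and Dnajc8 with PA (0.69, adjusted p = 0.0498). The shares of all genes that passed were 35.7% with PA and 20.5% with BSA.

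Of the HSF family and regulators Hsbp1, which encodes an HSF1-binding protein, was higher in HKO with PA (0.60, adjusted p = 0.00386), and none passed with BSA. Of 10 mitochondrial chaperones Grpel1 was higher with PA (0.38, adjusted p = 0.0438) and Grpel2 lower with BSA (-0.46, adjusted p = 0.0493). These counts stand beside 35.7% of all genes that passed with PA and 20.5% with BSA. Of 8 other heat-inducible genes Mrpl18 was higher (1.01, adjusted p = 0.000564) and Sqstm1, an autophagy receptor, lower (-0.44, adjusted p = 0.0477) with PA, and Mrpl18 was higher and Ier5, a co-regulator of HSF1, lower (-0.53, adjusted p = 0.0272) with BSA.

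Genes of other stress lists also rose with PA. Of 17 endoplasmic reticulum chaperone genes 3 rose in HKO and 5 in Flox, none fell, and the highest differences were Derl3 (1.83 in Flox), Herpud1 (1.40 in HKO) and Creld2 (1.22 in Flox). Of all genes 1.68% rose in HKO and 1.29% in Flox. Of 13 early response genes, which are also known to respond to cell isolation, 5 rose in HKO and 4 in Flox and none fell, against the same background shares, with Egr1 at 1.94 in Flox and Atf3 at 1.19 in HKO. Of 10 NRF2 targets, the antioxidant genes, none rose and 1 fell (Gclc) in HKO, where 1.25% of all genes fell, and 5 rose in Flox. With PA 7 of the 10 were lower in HKO than in Flox, led by Cbr3 (-1.64), where 18.8% of all genes were lower. The part of cell isolation in the rise of Hspa1a and Hspa1b was not tested.

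**Figure D4:**
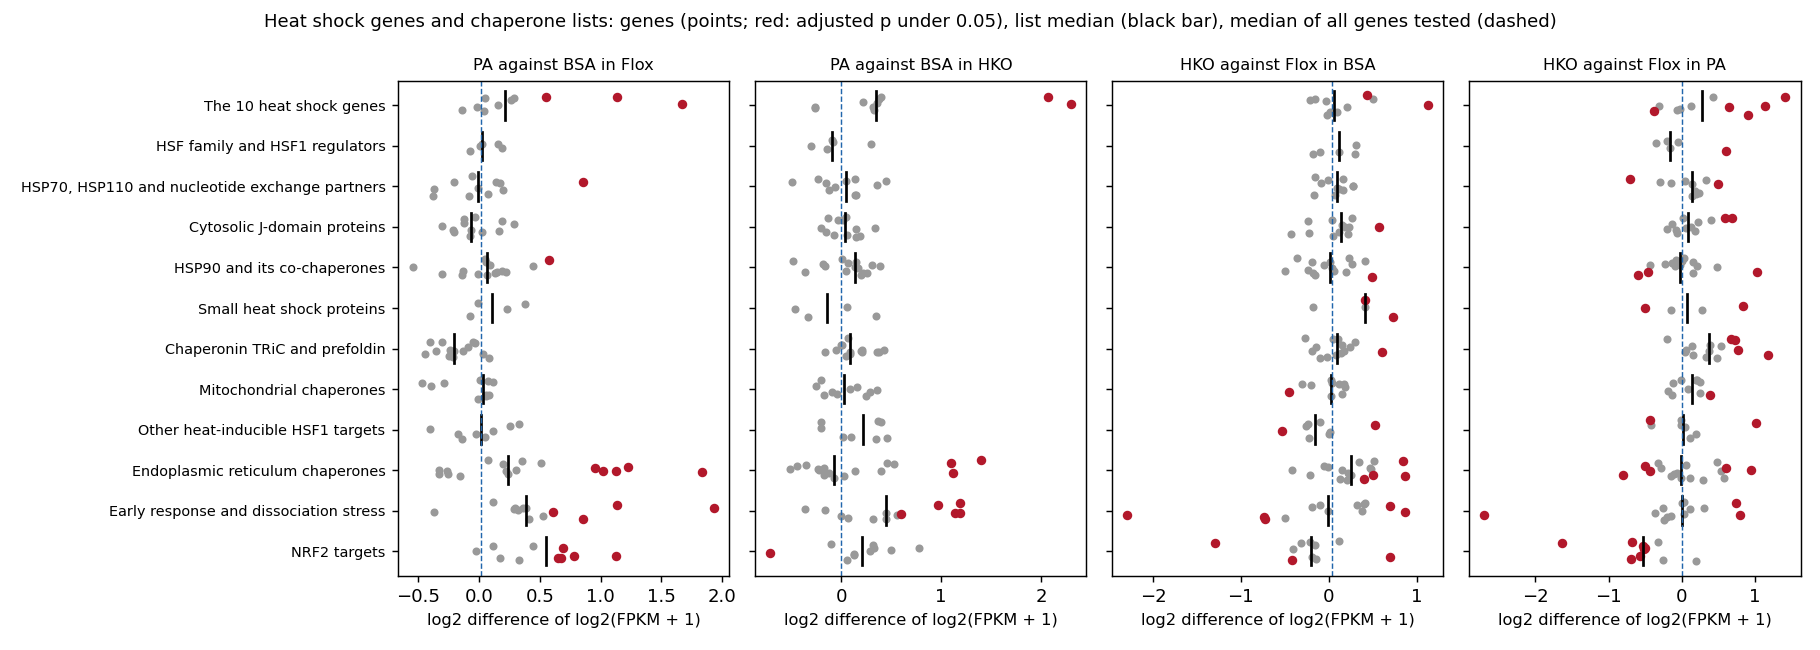
Differences of log2(FPKM + 1) for the tested genes (points) of the 10 heat shock genes and of 11 chaperone and stress lists, in 4 comparisons. Red points passed at an adjusted p under 0.05, black bars are list medians and the dashed line is the median of all 9743 genes; in the PA comparisons the cytosolic lists hold few red points beside Hspa1a and Hspa1b.

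Among 8689 named protein-coding genes outside the set, the patterns most like that of the mean of Hspa1a and Hspa1b over the 12 libraries were those of Creb3l3, Il23a, Atf3, Plin2 and Herpud1. Likeness was the mean absolute difference of log2(FPKM + 1) after centring each gene on its own mean, and it was 0.27, 0.31, 0.33, 0.36 and 0.39 for these genes. Between Hspa1a and Hspa1b themselves it was 0.27. That value sets a single gene against another and not against the mean of the pair, so it is not comparable with the others. Creb3l3, a liver transcription factor of lipid metabolism, had 64.9, 56.6 and 68.4 FPKM in HKO_PA, 22.5, 16.7 and 18.6 in HKO_BSA, 22.9, 36.8 and 27.7 in Flox_PA and 9.37, 9.50 and 9.28 in Flox_BSA. Like Hspa1b it was highest in the 3 HKO_PA libraries and lowest in the 3 Flox_BSA libraries. Atf3, a stress-induced transcription factor, had 41.0, 42.4 and 47.3 FPKM in HKO_PA and 10.7, 10.3 and 12.3 in Flox_BSA.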

How the data were processed

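RNA was extracted with an RNeasy Plus Mini Kit and libraries were made with an NEBNext Ultra RNA kit, per the labels' protocols, and the genome build is GRCm38 (mm10), per the submitters' processing notes. The aligner, counter and annotation were not given in the sources used here, and reads were not re-processed. The authors deposited FPKM values, 1 column per library, with the gene length used as divisor, per the file headers. FPKM times length was a whole multiple of 1 step per library (within 0.01, 100% of values of up to 1000 reads), so reads per gene could be computed; they were used for depth and for limma-voom, as an alternative.

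log2(FPKM + 1) was fitted with limma 3.58.1 in R 4.3.3, with 4 group means, a variance prior with a trend, and genes of a mean of at least 1 FPKM. P-values were adjusted by Benjamini-Hochberg over all 9743 genes, and the method was tested on simulated data. The members and lists were chosen with earlier results of these data known. Named genes are all members, up to 3 members of each list with the largest differences among those that passed, further members that passed where counts are small, which were chosen after their values were seen, and the 5 genes most like the HSP70 pair. Intervals from counts were not needed, and depth limits Hspa1a most, with 5 to 15 reads per BSA library. Promoter sequences are from RefSeq (GRCm38.p6); transcript sequences are from GENCODE M21. Alternatives were a pseudocount of 0.1, no filter, a filter at 5 FPKM, quantile normalization, a trimmed mean of log ratios, a robust prior, only the groups compared, replicate blocks, the summed HSP70 pair, limma-voom and omission of libraries.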

Additional observations from a re-analysis of the deposited data

Results flagged for a closer look

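The PA effect differed between the genotypes, by the test of the difference itself, for Hspa1a (0.93 on the log2 scale, HKO minus Flox, adjusted p = 0.0454). This call was lost in 15 of 21 alternatives (adjusted p over all 21 from 0.0208 to 0.243), and the summed Hspa1a and Hspa1b did not pass (0.74, adjusted p = 0.171). Among the genes of the chaperone and stress lists it differed for Derl3, a factor of endoplasmic reticulum-associated degradation (-1.38, adjusted p = 0.0129), which averaged 2.98 ± 0.341 FPKM in HKO_PA and 1.89 ± 0.153 in HKO_BSA, and 4.67 ± 0.692 in Flox_PA and 0.590 ± 0.201 in Flox_BSA. It also differed for Gclc, an enzyme of glutathione synthesis (-1.39, adjusted p = 0.0129), which averaged 87.1 ± 8.41 FPKM in HKO_PA and 144 ± 24.8 in HKO_BSA, and 140.1 ± 7.71 in Flox_PA and 87.2 ± 4.49 in Flox_BSA.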

How the results depend on the processing

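Of 905 single-gene values under the alternatives, 812 kept direction and side of the threshold, 41 lost a call, 14 gained one and 38 changed sign, 37 of these without passing. The number of the 10 genes that passed was 2 for PA in HKO, 3 for PA in Flox, 2 for genotype with BSA, 5 for genotype with PA and 1 for the difference between PA effects. With 1 library left out it ranged from 2 to 2, 2 to 2, 1 to 3, 4 to 5 and 0 to 2. The filter at 5 FPKM, which removes Hspa1a, Hspa1b and Hsph1, gave 0, 1 and 3 of 7 for PA in HKO, PA in Flox and genotype with PA; the count of 0 is by limma, with 1 gene at an unadjusted p under 0.05. Summing the HSP70 pair left 1 of 9 for PA in HKO. Genotype with BSA gave 1 with limma-voom and 4 with omission of both HKO libraries numbered 1. For the difference between PA effects the count was 0 with a pseudocount of 0.1, no filter, the filter at 5 FPKM, quantile normalization, each replicate block, limma-voom and the summed pair, where 2 to 4 genes had an unadjusted p under 0.05, and 3 with omission of both HKO libraries numbered 1. The cause of these changes was not tested.

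Deviations of same-numbered PA and BSA libraries correlated at -0.48 to 0.35 in HKO and at -0.02 to 0.32 in Flox. Those of same-numbered HKO and Flox libraries correlated at 0.04 to 0.18 with BSA and at -0.21 to 0.36 with PA. With 3 libraries per group these values cannot settle whether replicate numbers mark a pairing. With the number as a replicate block the counts were 2, 2, 2, 4 and 0, and with genotype and number as a block 2, 2 and 0 for the PA effects and their difference. Scaling with limma-voom shifted the median of all genes by -0.17 with BSA and -0.16 with PA between HKO and Flox, where Hspb1 differed by 0.97 and 1.26. The 5 to 15 reads per library limit Hspa1a in BSA.

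Changes of sign, other than that of Hspa1a with genotype in BSA under quantile normalization (0.40, adjusted p = 0.0217), were of differences that did not pass. Quantile normalization gave Hspb1 -0.029 for PA in Flox, Dnajb1 -0.030, Hsf1 0.011 and Hspe1 -0.12 for genotype with BSA, and Hsph1 0.020 for genotype with PA. Limma-voom gave Dnajb1 -0.16 and Hspe1 -0.073 for genotype with BSA and Hsp90aa1 -0.040 for genotype with PA. The trimmed mean of log ratios gave Dnajb1 -0.043 for genotype with BSA and 0.0073 for the difference between PA effects. Without both HKO libraries numbered 1, Hsp90aa1 was -0.062 for PA in HKO, -0.18 for genotype with PA and -0.049 for the difference, Dnajb1 -0.12 for genotype with BSA and 0.023 for the difference, and Hspa8 -0.069 for the difference. With 1 library left out, PA in Flox ranged from -0.29 to 0.19 for Hsp90aa1, -0.036 to 0.14 for Hspb1 and -0.0024 to 0.090 for Hsf1. Genotype with BSA ranged from -0.090 to 0.029 for Hspa1a, -0.12 to 0.087 for Dnajb1 and -0.18 to 0.12 for Hsf1, and with PA from -0.095 to 0.053 for Dnajb1, -0.15 to 0.0070 for Hsph1 and -0.18 to 0.53 for Hsp90aa1. The difference between PA effects ranged from -0.011 to 0.34 for Hspa8, -0.12 to 0.088 for Dnajb1 and -0.018 to 0.19 for Hsph1.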
